A study of Drosophila melanogaster with 48 samples.

Results

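Gene expression in the heads of unstressed males of *Drosophila melanogaster* was compared between lines from Nicosia, Cyprus, and lines from Munich, Germany. The comparison used 12 of the 48 libraries, namely the control libraries of both populations: 4 from the Cypriot background C2 and 8 from the German backgrounds M12 and M9. The Cypriot libraries were 2 each of the lines C2D3 and C2N1, and the German libraries were 2 each of M12D3, M12N3, M9D3, and M9N1. C2D3, M12D3, and M9D3 carry a deletion in the 3′ UTR of the metallothionein gene *MtnA*, and C2N1, M12N3, and M9N1 do not. All flies were 5 to 7 days old and were kept on food without menadione sodium bisulfite (MSB), the oxidant that the stressed libraries of the study received. Each background was founded by 1 wild-caught female and each pair of lines was made nearly isogenic from it. Per the paper, the M9 pair kept more residual differentiation than the M12 and C2 pairs. Cyprus was thus represented by 1 isofemale line and Germany by 2. A difference between the populations and a difference between these founders therefore cannot be told apart, and the p-values below measure only the spread between libraries of 1 line.

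Lines founded from different natural populations differ at many regulatory variants, and part of this variation acts on the expression of nearby genes. In flies, genes for detoxification, immunity, chemosensation, and cuticular lipids are known for expression that varies among natural lines. The adult head holds the compound eyes, the brain, the antennae and mouthparts, glia, muscle, and a fat body. Its RNA therefore reports on vision and smell as well as on metabolism.

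Libraries held 37988247 to 47067671 counts in Cyprus and 27223075 to 54987685 counts in Germany. In a principal component analysis of 500 genes, the first component (38.4% of the variance) placed M12 at 27.7 to 30.9, apart from C2 at -22.2 to -17.3 and M9 at -14.8 to -5.51. The second (31.3%) placed C2 at 19.5 to 22.2, M12 at 3.77 to 5.29, and M9 at -29.6 to -21.8. The 3 backgrounds were thus separate, and the German ones did not lie together. Of the marker genes for the cells of a head, 0 of 6 for neurons and 0 of 6 for glia differed between the populations. The number was also 0 for muscle (5 tested) and hemocytes (6 tested). For photoreceptors, 1 of 10 was lower (*Rh6*), and for fat body, 1 of 5 tested was lower (*Lsp1beta*). Of all tested genes, 15.4% differed, so a count of 0 in lists this short does not show equal cell content. Summed photoreceptor markers ranged from 63554 to 74984 CPM in Cyprus and from 48498 to 67703 CPM in Germany. All 6 accessory gland markers were under 1 CPM (counts scaled to a common library size). Summed gut markers ranged from 45.2 to 147 CPM in Cyprus and from 15.8 to 72.8 CPM in Germany, although 4 of the 7, among them both trypsins, were under 1 CPM. This sum was mostly the amylase gene *Amy-p* (43.5 to 145 CPM in Cyprus and 10.7 to 64.0 CPM in Germany). Of the 4 gut markers tested, 1 was higher and 2 were lower in Cyprus. Markers of females summed to 48.3 to 67.7 CPM in Cyprus and 14.5 to 51.1 CPM in Germany, which was mostly *Yp3*, while 3 of the 6 were under 1 CPM. A pair of Cypriot libraries stood apart. The first C2D3 library was low in clock transcripts, and the first C2N1 library was low in several mitochondrial ones, such as *mt:ND5* with 46.4 CPM, against 2179 to 2601 CPM in the other Cypriot libraries. A German library also stood apart in a heat shock transcript. *Hsp70Ab* had 166 CPM in the first M9D3 library, against 3.13 to 27.5 CPM in the other German libraries.

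Over the 10911 genes tested with edgeR's quasi-likelihood test, 1004 were higher in Cyprus than in Germany (9.2% of those tested) and 680 were lower (6.23%), which is 1684 in all (15.4%) at an adjusted p of 0.05. Taken 1 German background at a time, C2 differed from M12 in 1895 genes (17.4%) and from M9 in 1367 genes (12.5%). The German backgrounds differed from each other in 1404 genes (12.9%), a number between these. A gene that lies between M12 and M9 in C2 can be past the threshold in such a mean, so the genes past it against M12 and against M9 with the same sign are described here. They numbered 447 higher in C2 (4.1%) and 255 lower (2.34%), together 702 (6.43%). By the same rule, M12 stood on 1 side of both C2 and M9 in 671 genes (6.15%), and M9 on 1 side of both C2 and M12 in 422 genes (3.87%). These counts come from 1 fit and share libraries, and the difference between them was not tested. A further 55 genes were past the threshold against both with opposite signs.

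Among the 702 genes that set C2 apart, 176 higher and 124 lower genes changed by over 1 on the log2 scale, and the median size of the change was 0.84. The 4 Cypriot values did not overlap the 8 German values in 497 of the 702, and in 713 of all tested genes (6.53%). M12 and M9 also differed from each other in 137 of the 702 genes. When the mean of each line was taken as 1 value, limma called 165 genes in the comparison of populations, of which 156 were among the 702. With population as the only term, 921 genes were called, of which 638 were among the 702.

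**Figure D1:**
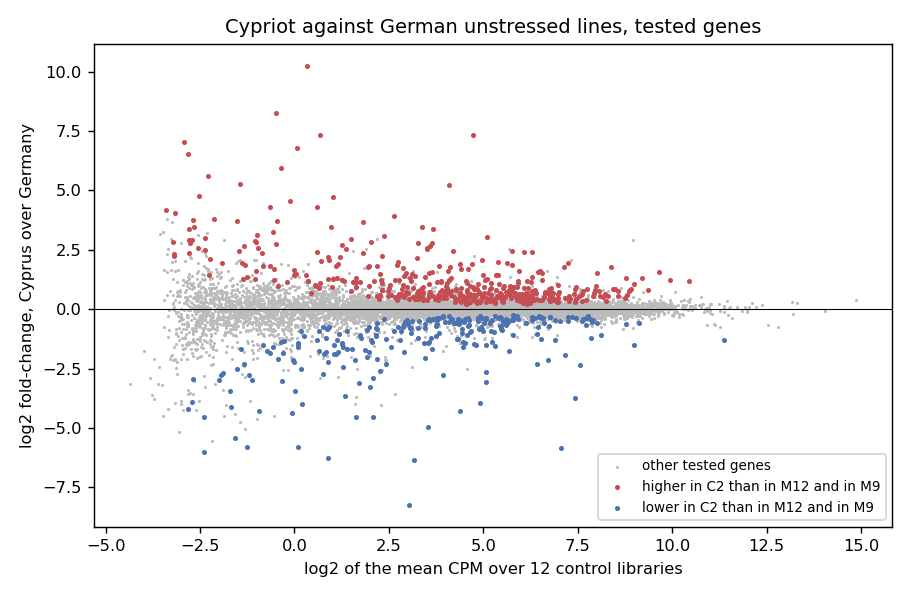
Each point is 1 of the 10911 tested genes, with the log2 of its mean CPM over the 12 control libraries on the horizontal axis and its log2 fold-change of Cyprus over Germany on the vertical axis. The 447 genes that were higher in C2 than in both M12 and M9 are red, the 255 that were lower are blue, and both spread over the whole range of expression levels.

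The 10 highest and 10 lowest log2 fold-changes described next were taken from genes whose libraries did not overlap between the populations. The lack of overlap in these genes thus follows from the choice. Among them, the largest increase at moderate or higher expression was that of *fiz* (X, 14906334 to 14909708 in genome Release 6). This gene encodes an oxidoreductase with ecdysone oxidase activity. It had 46.1, 44.3, 34.9, and 69.3 CPM in the Cypriot libraries, against 0.515 to 2.89 CPM (median 1.21) in the German ones. All Cypriot values lay far above every German value, and the log2 fold-change (given with its SE) was 5.24 ± 0.25, at an adjusted p of 5.82e-07. The fatty acyl-CoA reductase gene *FarO*, which acts in oenocytes, had 34.4, 27.3, 45.5, and 20.2 CPM in Cyprus and 1.72 to 4.82 CPM (median 3.32) in Germany. Its log2 fold-change was 3.39 ± 0.20. It overlaps other annotated genes, as *fiz* does, and the treatment of strand in the counting is not given in the sources used here.

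*ppk23* encodes an ion channel subunit of the taste neurons that detect pheromones. It had 3.97 and 6.61 CPM in C2D3 and 22.1 and 19.8 CPM in C2N1, against 0.853 to 1.55 CPM (median 1.25) in Germany. All Cypriot values were higher (log2 fold-change 3.08 ± 0.16), and the C2N1 libraries were higher than the C2D3 libraries. *CG43293*, *CG34456*, *CG1113*, *CG3513*, and *CG3348* had log2 fold-changes of 2.78 to 4.73. The value of *CG3348* (3.05) rested on the first C2D3 library, with 285 CPM against 13.7 to 29.1 CPM in the other 3 Cypriot libraries, and it was 1.32 without that library.

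Among the genes that were lower in Cyprus, *GstE11*, a glutathione S-transferase of the epsilon class (2R, 18503608 to 18505025), was nearly without reads. It had 0.0254, 0.0488, 0.063, and 0 CPM in the Cypriot libraries, against 7.62 to 20.1 CPM (median 10.7) in the German ones, or 6 counts in Cyprus and 4274 in Germany. The ratio of Germany over Cyprus was 351 by library size, with a counting interval of 161 to 957 (exact, 95%). This interval covers counting error in the pooled reads only. The transcript was also present in every Malaysian control, at 6.25 CPM or more, and the highest Zambian control had 25.0 CPM. *CG14329* had 0.0975 to 0.280 CPM in the Cypriot libraries and 8.37 to 19.6 CPM (median 13.9) in the German libraries, a log2 fold-change of -6.36 ± 0.25.

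*Obp99a*, an odorant-binding protein gene, differed mostly between the German backgrounds. It had 0.636, 0.878, 0.168, and 0.431 CPM in the Cypriot libraries, while it averaged 400 CPM in M12 and 1.82 CPM in M9. The log2 fold-change was -9.74 against M12 and -1.93 against M9, so C2 was below both, but near the level of M9. Malaysian (0.0952 to 0.319 CPM) and Zambian controls (0.0247 to 1.63 CPM) were low as well, which left M12 as the background with high expression. *Srg3* was likewise lowest in C2 (0.731 to 1.67 CPM), with means of 49.5 CPM in M12 and 11.7 CPM in M9. *Lime*, a transcription factor of hemocytes and fat body, had 0.042 to 0.350 CPM in Cyprus and 2.01 to 8.26 CPM (median 4.09) in Germany, a log2 fold-change of -4.54 ± 0.42. *CG4210*, *CG31817*, *ect*, and *CG34330* were lower by 3.07 to 4.54 on the log2 scale.

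**Figure D2:**
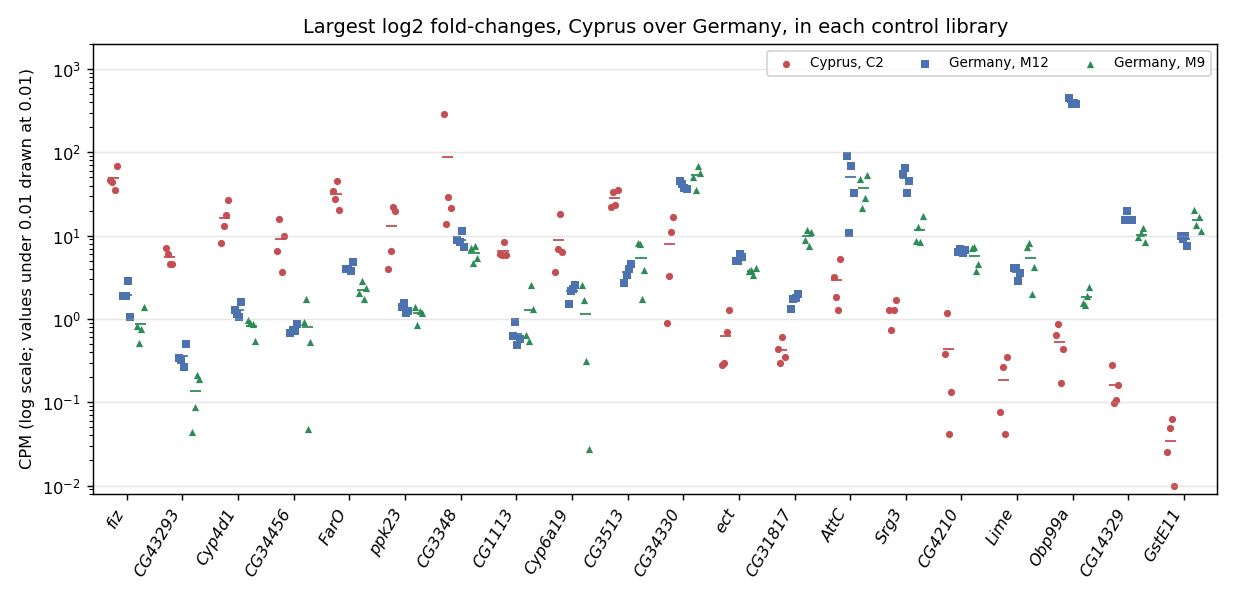
CPM (log axis) of the 10 genes with the highest and the 10 with the lowest log2 fold-change of Cyprus over Germany, chosen with a mean log2 CPM of at least 1 and no overlap between populations. Points are single libraries of C2 (red circles), M12 (blue squares), and M9 (green triangles), and short lines are their means. *Obp99a* is near 400 CPM in M12 and under 3 CPM elsewhere, and *GstE11* is under 0.1 CPM in every Cypriot library. Values under 0.01 CPM are drawn at 0.01 CPM.

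Cytochrome P450 enzymes oxidize insecticides and plant toxins as well as hormones and fatty acids. Of 82 tested P450 genes, 35 were higher and 11 lower in Cyprus than in Germany. Against both German backgrounds, 22 were higher and 3 lower, which is 26.8% and 3.66% of the list, where all tested genes gave 4.1% and 2.34%. The median log2 fold-change of the list was 0.22, against 0.00 for all tested genes. A median above 0 was not particular to this list. It was 0.24 for glutathione S-transferase, 0.17 for proteasome, and 0.15 for cytosolic ribosomal protein genes, while other lists, such as chemoreceptors (-0.13), were below 0. These 22 included 8 neighbouring genes on 2R, between 14871366 and 14889010, in the order *Cyp6a22*, *Cyp6a17*, *Cyp6a23*, *Cyp6a19*, *Cyp6a9*, *Cyp6a20*, *Cyp6a21*, and *Cyp6a8*. This was the longest run of adjacent tested genes that were all higher, or all lower, in C2 than in both German backgrounds.

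In the *Cyp6a* cluster, *Cyp6a17*, which is known for a role in temperature preference, was the most abundant. It had 224, 298, 238, and 291 CPM in the Cypriot libraries, against 47.0 to 104 CPM (median 84.7) in the German ones. The Cypriot values were all higher (log2 fold-change 1.78 ± 0.10, adjusted p = 2.15e-06). *Cyp6a20*, which is known for its effect on male aggression, had 154, 181, 111, and 179 CPM in Cyprus and 8.59 to 95.4 CPM (median 29.7) in Germany, a log2 fold-change of 2.40 ± 0.13. The German values fell into 3 levels, with 27.9 to 34.3 CPM in M12, 72.3 and 95.4 CPM in M9D3, and 8.59 and 10.8 CPM in M9N1. *Cyp6a9* had 77.4 CPM in the first C2D3 library and 142 to 151 CPM in the other Cypriot libraries, against 51.2 to 58.9 CPM in M12, 28.7 and 38.3 CPM in M9D3, and 3.20 and 3.52 CPM in M9N1. The 2 M9 lines thus differed from each other at this cluster.

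The other 5 genes of the cluster had log2 fold-changes of 1.11 to 2.83, and of the 8, *Cyp6a21* and *Cyp6a8* overlapped between the populations through the first M9D3 library. *Cyp6a8* had 31.3 and 28.8 CPM in C2D3 and 94.5 and 48.8 CPM in C2N1, against 6.20 to 37.1 CPM (median 9.38) in Germany. In the Malaysian controls it had only 0.123 to 0.286 CPM, and in the Zambian ones 2.35 to 446 CPM. These genes are close paralogs, *Cyp6a19* and *Cyp6a9* overlap, and how reads that map to several genes were counted is not given in the sources used here, so the values of single members are uncertain. With 1 mean per line, 7 of the 8 had adjusted p of 0.115 to 0.361 in limma, and *Cyp6a17* remained past the threshold.

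Elsewhere in the family, *Cyp6w1* had 1005, 1634, 1198, and 1865 CPM in Cyprus and 341 to 666 CPM (median 467) in Germany, all higher in Cyprus (log2 fold-change 1.56 ± 0.18). *Cyp4d1* had 8.09, 13.2, 17.9, and 26.9 CPM in Cyprus and 0.551 to 1.62 CPM (median 1.02) in Germany (3.92 ± 0.18). *Cyp313a1* and *Cyp4d21* were higher by 0.86 and 0.93, with overlapping libraries. The P450 genes that were lower against both backgrounds were *Cyp313b1* (-1.45 ± 0.28) and the near-identical pair *Cyp12d1-d* (-0.97 ± 0.18) and *Cyp12d1-p* (-0.76 ± 0.17), which overlapped between populations and whose reads cannot be assigned to 1 copy with certainty. *Cyp12d1-p* had an adjusted p of 0.0558 without the first C2D3 library.

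Glutathione S-transferases conjugate glutathione to oxidized lipids and xenobiotics. Of 33 tested genes, 12 were higher and 6 lower in Cyprus, and 6 were higher and 3 lower against both German backgrounds (18.2% and 9.09%, against 4.1% and 2.34% of all tested genes). The epsilon genes of 1 cluster on 2R went in both directions. *GstE5*, *GstE6*, and *GstE7*, which lie side by side (18404605 to 18407688), were higher by 2.14, 1.88, and 1.78 on the log2 scale. *GstE6* had 117, 113, 68.2, and 105 CPM in Cyprus and 13.0 to 58.1 CPM (median 29.4) in Germany. *GstE3* was higher (1.11 ± 0.15), while *GstE1*, at 18398393 to 18399223, had 14.9, 22.3, 7.63, and 16.2 CPM in Cyprus and 33.6 to 49.5 CPM (median 43.4) in Germany (-1.53 ± 0.18). *GstT2* was also lower (-2.03 ± 0.08), with 6.76 and 6.46 CPM in C2D3 and 1.72 and 1.91 CPM in C2N1, against 12.1 to 17.1 CPM (median 14.1) in Germany.

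*GstS1*, an abundant glutathione S-transferase of flight muscle, was higher by 0.64 ± 0.07 without overlap, and *GstZ2* by 0.36 ± 0.09, for which the call was lost without the first C2D3 library (adjusted p = 0.0637). UDP-glycosyltransferases conjugate sugars. Of 27 tested, 9 were higher and 4 lower (33.3% and 14.8%, against 9.2% and 6.23% of all tested genes). Against both backgrounds, 3 were higher and 2 lower (11.1% and 7.41%, against 4.1% and 2.34%). The largest change among the 4 most abundant of these was that of *Ugt302K1*, with 5.47, 3.93, 2.73, and 3.15 CPM in Cyprus and 0.382 to 3.74 CPM (median 0.831) in Germany (1.90 ± 0.14). *Ugt37C1* was higher by 1.69 and *Ugt35A1* was lower by 0.47 on the log2 scale. *Ugt49C1* (0.52) was 0.40 without the first C2D3 library, at an adjusted p of 0.0583.

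**Figure D3:**
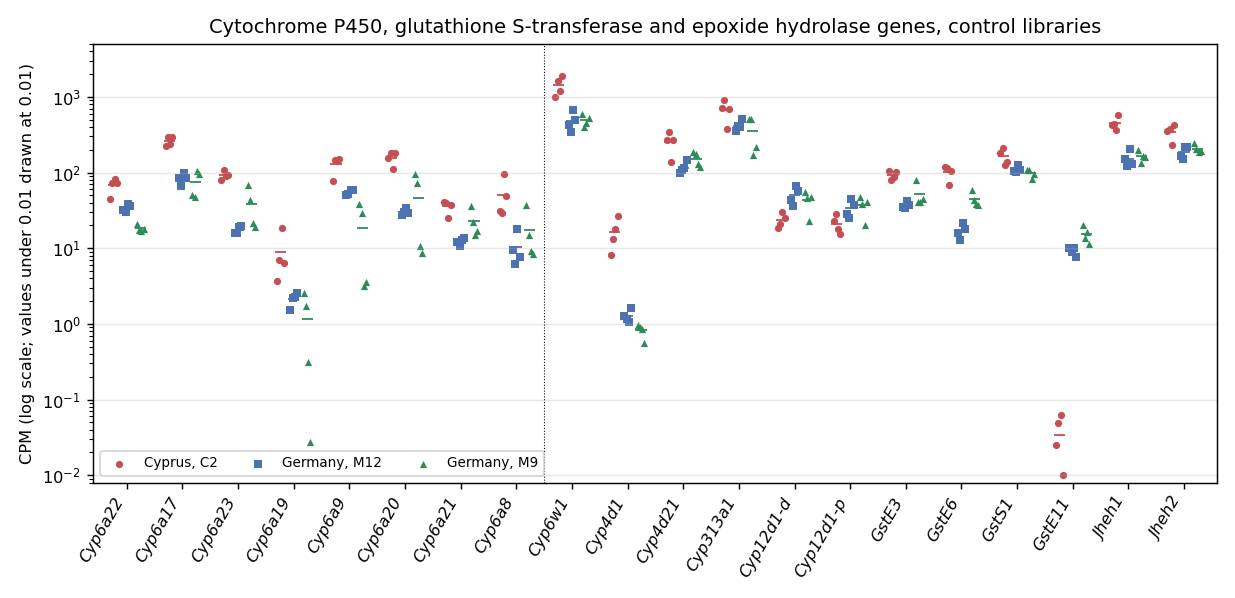
CPM (log axis) in each control library of C2 (red circles), M12 (blue squares), and M9 (green triangles), with means as short lines. The 8 genes left of the dotted line are the *Cyp6a* cluster in chromosomal order, all higher in C2 than in M12 and M9, and to the right *GstE11* and the *Cyp12d1* pair are lower in C2 while the others are higher.

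Juvenile hormone epoxide hydrolases degrade juvenile hormone and also hydrolyse other epoxides, and juvenile hormone-binding proteins are related to carriers in the hemolymph. Of 23 tested genes for hormone turnover and response, 7 were higher and 0 lower in Cyprus, and 5 were higher against both backgrounds (21.7%, against 4.1% of all tested genes). *Jheh1* (2R, 18853434 to 18855087) had 426, 440, 369, and 572 CPM in the Cypriot libraries, against 123 to 202 CPM (median 157) in the German ones, without overlap (log2 fold-change 1.52 ± 0.15, adjusted p = 0.000102). The adjacent *Jheh2* had 352, 380, 232, and 423 CPM in Cyprus and 151 to 242 CPM (median 200) in Germany, with an overlap through 1 C2N1 library (0.82 ± 0.13). *Jheh3*, the next gene, was not past the threshold in the mean contrast (0.24 ± 0.09, adjusted p = 0.114). An antisense RNA overlaps all 3. *Jhbp13* (0.84 ± 0.10) and *Jhbp12* (0.74 ± 0.13) were higher, and so was *Jhbp11* (0.78 ± 0.19), but with 0.60 and an adjusted p of 0.0968 without the second C2D3 library and 0.46 without the second C2N1 library.

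Desaturase, elongase, and related genes make fatty acids and cuticular hydrocarbons. Of 17 tested, 4 were higher and 0 lower (23.5% and 0%, against 9.2% and 6.23% of all tested genes). All 4 were higher against both backgrounds (23.5%, against 4.1%). *Cyt-b5*, the electron donor of desaturases, had 432, 364, 369, and 388 CPM in Cyprus and 195 to 330 CPM (median 249) in Germany, without overlap (0.62 ± 0.09). *Elovl7* was higher by 0.52 ± 0.11, which was 0.31 without the second C2N1 library. The neighbouring *Elo68alpha*, which is needed for the male pheromone cis-vaccenyl acetate, and *Elo68beta* were higher by 2.45 and 2.10, but at under 1 CPM in every library. *Elo68beta* had an adjusted p of 0.0610 without the first C2D3 library. The median of this list was -0.02.

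Digestive enzymes and genes of feeding and fat metabolism moved in both directions. Of 18 digestive genes tested, 8 were higher (44.4%, against 9.2% of all tested genes) and 5 lower (27.8%, against 6.23%), and 3 were higher and 1 lower against both backgrounds (16.7% and 5.56%, against 4.1% and 2.34%). The maltase gene *Mal-B2* had 518, 699, 534, and 766 CPM in Cyprus and 141 to 243 CPM (median 180) in Germany, without overlap (1.79 ± 0.15), and its neighbour *Mal-B1* was higher by 1.38 ± 0.11. Another maltase gene, *Mal-A1*, was lower, with 0.700 to 2.95 CPM in Cyprus and 4.49 to 8.03 CPM (median 6.05) in Germany (-2.10 ± 0.16). The amylase gene *Amy-d* had 180 and 338 CPM in C2D3 and 49.0 and 105 CPM in C2N1, against 33.3 to 64.1 CPM (median 48.3) in Germany (1.56 ± 0.25). *Amy-p*, its near-identical copy, was higher than in M9 (2.20) and not past the threshold against M12 (0.51, adjusted p = 0.18), and reads of the pair may be shared.

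Of 33 feeding and fat genes, 8 were higher and 5 lower (24.2% and 15.2%, against 9.2% and 6.23% of all tested genes). Against both backgrounds, 3 were higher and 2 lower (9.09% and 6.06%, against 4.1% and 2.34%). *tobi*, an alpha-glucosidase gene that responds to insulin signalling and diet, had 997 and 845 CPM in C2D3 and 313 and 702 CPM in C2N1, against 153 to 464 CPM (median 271) in Germany (1.31 ± 0.18). *Gpdh1*, the cytosolic glycerol-3-phosphate dehydrogenase gene, had 1173, 784, 822, and 807 CPM in Cyprus and 259 to 721 CPM (median 554) in Germany, without overlap (0.82 ± 0.11). The nuclear receptor gene *Hnf4*, an activator of fat catabolism, was higher by 0.36 ± 0.06. *Lsp1beta*, a larval storage protein gene, had 18.5, 29.2, 3.47, and 14.9 CPM in Cyprus and 14.4 to 472 CPM (median 234) in Germany (-3.73 ± 0.57), and its low levels in the Malaysian (0.564 to 23.3 CPM) and Zambian controls (0.0741 to 15.2 CPM) were on the Cypriot side. The related *Lsp1alpha* went the other way in the mean contrast (2.54 ± 0.45, adjusted p = 0.00381). It had 0.988 to 16.6 CPM in Cyprus and 0.143 to 3.44 CPM in Germany, and was not past the threshold against M12 (1.54, adjusted p = 0.0708). *Lsp1gamma* was not past the threshold in the mean contrast (0.32, adjusted p = 0.741). The dopamine transporter gene *DAT* was lower by 0.28 on the log2 scale. The fat body markers *Lsp2* (0.21 ± 0.29) and *fit* (-0.53 ± 0.32) were not past the threshold.

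In the eye, *Rh6* was, of the 5 rhodopsin genes examined, the one past the threshold against both backgrounds. It encodes the green-sensitive rhodopsin of a subset of R8 photoreceptors. It had 289 and 286 CPM in C2D3 and 217 and 138 CPM in C2N1, against 594 to 748 CPM (median 647) in the German libraries. Every Cypriot value was below every German value, and the log2 fold-change was -1.53 ± 0.12 (adjusted p = 1.84e-05). Malaysian (456 to 844 CPM) and Zambian controls (476 to 837 CPM) were near the German level. *Rh3* (0.23 ± 0.11), *Rh4* (0.34 ± 0.11), *Rh5* (-0.18 ± 0.09), and *ninaE* (0.37 ± 0.14), which encodes the rhodopsin of the outer photoreceptors, were not past the threshold in the mean contrast. *Rh4* was higher than in M12 (0.52, adjusted p = 0.0196), and under MSB *Rh3* (0.37, adjusted p = 0.00995) and *ninaE* (0.37, adjusted p = 0.00645) were higher in Cyprus. In RNA from whole heads, fewer *Rh6* photoreceptors and less *Rh6* RNA in each of them cannot be told apart.

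Of 31 phototransduction genes, 6 were higher and 2 lower (19.4% and 6.45%, against 9.2% and 6.23% of all tested genes), and against both backgrounds *ninaA*, whose product is a chaperone for rhodopsin, was higher (0.71 ± 0.13) and *Rh6* was lower. Of 25 eye pigment genes, 2 were higher (*Prat* and *cl*, 8%, near the 9.2% of all tested genes) and 0 lower. *cl*, a gene of drosopterin synthesis, had 108 to 114 CPM in Cyprus and 74.3 to 94.7 CPM (median 88.5) in Germany (0.37 ± 0.06).

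Odorant-binding proteins carry odorants to receptors in the sensilla. Of 34 tested genes, 5 were higher and 4 lower (14.7% and 11.8%, against 9.2% and 6.23% of all tested genes). Against both backgrounds, 4 were higher (11.8%, against 4.1%) and 1 lower (2.94%, near the 2.34% of all tested genes). *Obp57b* had 55.2, 72.3, 66.2, and 68.0 CPM in Cyprus and 34.0 to 48.1 CPM (median 39.6) in Germany (0.71 ± 0.08). *Obp56e* (0.76 ± 0.08) and *Obp19c* (0.72 ± 0.09) were higher as well, each without overlap. Of 79 odorant, gustatory, and ionotropic receptor genes, 5 were higher and 6 lower, a share (13.9%) near that of all tested genes (15.4%), and 4 were higher and 3 lower against both backgrounds (5.06% and 3.8%, against 4.1% and 2.34%). The antennal ionotropic receptor gene *Ir76a* had 29.6, 25.9, 31.5, and 19.3 CPM in Cyprus and 2.56 to 10.8 CPM (median 3.44) in Germany, where the highest values were those of M9N1 (2.67 ± 0.14). *Ir56c* was higher by 2.69 ± 0.14. *Ir68a*, which encodes a receptor for moist air, was higher by 1.23 ± 0.10, while *Ir93a*, a coreceptor for humidity and temperature, had 0.171 to 0.484 CPM in Cyprus and 0.556 to 2.97 CPM (median 1.11) in Germany (-2.24 ± 0.29).

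Of 18 tested antimicrobial peptide genes, 0 were higher and 2 lower (*AttC* and *Drsl4*, 11.1%, against 6.23% of all tested genes), and *AttC* was the member lower against both backgrounds. It encodes an attacin and had 3.20, 1.83, 1.28, and 5.30 CPM in Cyprus, against 10.9 to 89.7 CPM (median 39.8) in Germany (-3.93 ± 0.67, adjusted p = 0.0029). Under MSB its log2 fold-change was -0.15 (adjusted p = 0.896). *DptB* (-2.45 ± 0.85, adjusted p = 0.08) and *Mtk* (-2.15 ± 0.77, adjusted p = 0.0901) were not past the threshold, and the median of the list was -1.12. The summed CPM of the antimicrobial peptide genes overlapped, at 710 to 972 in Cyprus and 483 to 1590 in Germany. Of 26 recognition and Bomanin genes, 3 were higher (*BomT3*, *GNBP1*, and *PGRP-LF*) and 4 lower (*BomBc1*, *BomBc3*, *BomS5*, and *BomS6*, with log2 fold-changes of -1.28 to -1.11), which is 11.5% and 15.4% of the list, against 9.2% and 6.23% of all tested genes. *BomS6*, an effector of the Toll pathway, was lower against both, at 44.1 to 72.6 CPM in Cyprus and 94.4 to 214 CPM (median 154) in Germany (-1.28 ± 0.13).

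Of 5 tested Turandot genes, which encode secreted stress peptides, 3 were lower (*TotA*, *TotC*, and *TotM*, 60%, against 6.23% of all tested genes), and *TotM* was lower against both backgrounds (-1.07 ± 0.24). Its adjusted p was 0.063 without the first C2D3 library and 0.172 in a fit over the controls of all populations. *TotA* was lower than in M12 (-2.56) and not past the threshold against M9 (0.49, adjusted p = 0.155), with means of 31.2 CPM in C2, 186 CPM in M12, and 30.4 CPM in M9.

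Of 25 heat shock genes, 1 was higher (*Hsc70-2*, 1.20) and 0 lower (4% and 0%, against 9.2% and 6.23% of all tested genes), and 0 were past the threshold against both backgrounds. Of 23 antioxidant genes, 4 were higher and 2 lower (17.4% and 8.7%, against 9.2% and 6.23% of all tested genes). Against both, *Keap1*, whose product senses oxidants and holds back the factor CncC, was higher (0.53 ± 0.08), and the peroxiredoxin gene *Prx6c* was lower (-0.93 ± 0.15). That is 4.35% in each direction, against 4.1% and 2.34% of all tested genes. Of the metallothionein genes, *MtnA* had 290, 227, 361, and 248 CPM in Cyprus and 262 to 663 CPM (median 338) in Germany. It was lower by 0.45 ± 0.13 on the log2 scale (adjusted p = 0.0373), with -0.88 against M9 and -0.01 against M12. The call was lost when any 1 of 9 libraries was left out, with values of -0.48 to -0.33, and in the fit over control and stress libraries. *MtnD* (0.44), *MtnE* (-0.05), and *MtnF* (-0.12) were not past the threshold, and *MtnB* and *MtnC* had too few counts to be tested.

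A list of 28 genes known for variation among natural populations had 27 tested, with 7 higher and 7 lower (25.9% each, against 9.2% and 6.23% of all tested genes). Against both backgrounds, 5 were higher and 3 lower (18.5% and 11.1%, against 4.1% and 2.34%). Besides *Jheh1*, *Jheh2*, *Gpdh1*, *Amy-d*, *Cyp6a8*, and the *Cyp12d1* pair, these held *CHKov1* (-0.72 ± 0.12), a gene known for a transposon insertion tied to resistance. *Cyp6g1*, whose overexpression confers resistance to DDT, was high in both populations, with 2407, 3741, 2345, and 4479 CPM in Cyprus and 1779 to 3211 CPM (median 2555) in Germany (0.35 ± 0.19, adjusted p = 0.25). Under MSB it was higher in Cyprus (0.81 ± 0.11, adjusted p = 0.00108). It had 200 to 1213 CPM in the Zambian controls. *Adh*, which encodes alcohol dehydrogenase, was lower than in M12 (-0.91) and not past the threshold against M9 (-0.45, adjusted p = 0.116). *Cyp6a2* was lower than in M9 (-1.21) but not past the threshold against M12 (0.39, adjusted p = 0.0605). The insecticide targets *Ace*, *para*, and *Rdl*, the diapause gene *cpo*, the desaturase genes *Desat1* and *Desat2*, *Cyp12a4*, *Cyp6g2*, *CHKov2*, and *Jheh3* were not past the threshold in the mean contrast, with log2 fold-changes of -0.63 to 0.24. Against 1 background, *Cyp6g2* (-1.06, adjusted p = 0.0164) and *CHKov2* (-0.45, adjusted p = 0.0292) were lower than in M9, and *Jheh3* was higher than in M12 (0.52, adjusted p = 0.0094). *Fst* had too few counts to be tested. *InR* (-0.25) and *Sod1* (0.29) were past the threshold, but each lost the call without any of several single libraries, with values of -0.31 to -0.21 and 0.25 to 0.30.

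Of 14 clock genes, 1 was lower (*Pdfr*, the receptor of the neuropeptide PDF, -0.29) and 0 higher, and 0 were past the threshold against both backgrounds. The share of lower genes was 7.14%, near the 6.23% of all tested genes. *tim*, which encodes the partner of Period, had 76.1 CPM in the first C2D3 library and 432, 436, and 461 CPM in the other Cypriot libraries, against 448 to 664 CPM (median 599) in Germany (-0.77 ± 0.35, adjusted p = 0.169). *per* (44.0 CPM) and *vri* (87.5 CPM) were low in the same library, where the other Cypriot libraries had 126 to 173 and 265 to 300 CPM. Without that library, the log2 fold-change of *per* was 0.17, against -0.11 with it, and neither was past the threshold. Under MSB, *tim* (-0.76, adjusted p = 0.00508), *per* (-0.66, adjusted p = 0.0155), and *vri* (-0.53, adjusted p = 0.0156) were lower in Cyprus. There, *tim* had 141 to 202 CPM in the Cypriot libraries and 231 to 330 CPM in the German libraries of the fit.

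Among housekeeping groups the share of genes past the threshold varied. Of 86 cytosolic ribosomal protein genes, 0 were past the threshold, and of 13 mitochondrially encoded genes, 0 were. Several of the latter were low in the first C2N1 library and had wide errors, such as *mt:ND5* (-0.73 ± 0.67). For these, the lack of a call does not show equal levels. Of 72 mitochondrial ribosomal protein genes, 9 were higher (12.5%, against 9.2% of all tested genes) and 0 lower, and 1 (*mRpS2*, 0.52 ± 0.09) was higher against both backgrounds (1.39%, against 4.1%). Of 38 proteasome genes, 9 were higher (23.7%, above the share of all tested genes) and 0 lower, and the ubiquitin receptor gene *Rpn13* was higher against both (0.26 ± 0.06), which had an adjusted p of 0.0667 without the first C2D3 library. Of 81 nuclear genes of the respiratory chain, 2 were higher (*COX6CL* and *sun*) and 1 lower (*COX4L*), which is 2.47% and 1.23%, against 9.2% and 6.23% of all tested genes. The member that set C2 apart was *COX6CL*, a paralog of a cytochrome c oxidase subunit gene, with 4.40, 4.58, 6.66, and 3.23 CPM in Cyprus and 0 to 0.124 CPM (median 0) in Germany. It was also nearly without reads in the Malaysian (0 to 0.0961 CPM) and Zambian controls (0 to 0.231 CPM), so reads above these levels were found in C2.

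**Figure D4:**
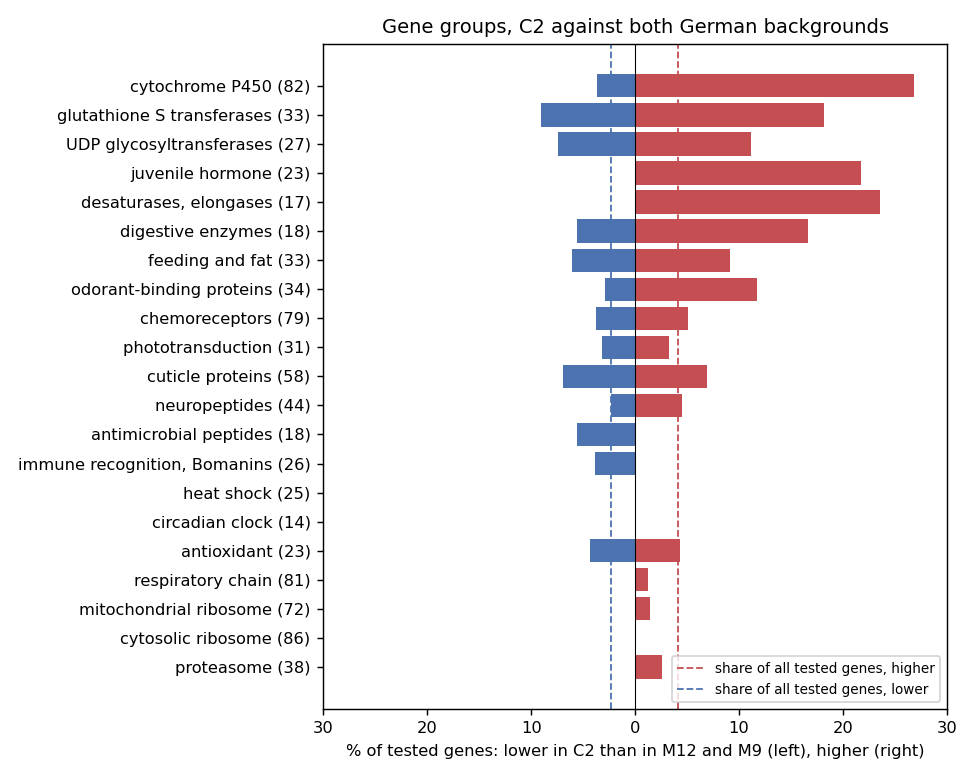
Share of the tested genes of each group that were lower (blue, left) or higher (red, right) in C2 than in both M12 and M9, in percent, with the number tested in parentheses. Dashed lines mark the shares over all 10911 tested genes, 2.34% and 4.1%, and the bar of the P450 genes reaches 26.8%.

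Several transcripts were at or near 0 in 1 population. *CG32023* (3L, 8803602 to 8804182) had 4.50, 5.19, 2.29, and 3.07 CPM in Cyprus and 0 in every German library, or 613 counts against 0. By the exact 95% limit on reads pooled over libraries, it was at least 336-fold higher in these Cypriot libraries. The ratio was 415 with the German group set at a floor of 3 counts. Limits and intervals of this kind cover counting error only, not the spread between libraries, lines, or founders. The genes were also chosen for at most 3 counts in each library of the other population, so low counts there follow from the choice. Its neighbours *CG34426* and *CG34427* were higher in C2 as well. *SdicA*, a tandem copy of the sperm dynein intermediate chain genes on X, had 348 counts in Cyprus and 2 in Germany, a ratio of 353 with a counting interval of 97.1 to 2928 (exact, 95%), and with *Sdic3* and *SdicB* it formed a run of 3 adjacent genes that were higher. Reads among such copies may be misassigned. *CG33775* had 1.74 to 2.59 CPM in Cyprus and 0 to 0.0826 CPM (median 0.0387) in Germany, a ratio of 57.6 with an interval of 33.3 to 109.

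The other transcripts of this kind came from a single library, line, or background. *CG16826* (8.63 CPM) and *whe* (4.34 CPM) were nearly confined to the second C2D3 library, with at most 0.0538 CPM in the other Cypriot libraries, while Zambian controls reached 454 and 223 CPM. In Germany, *CG14851* was present in M9D3 alone (7.68 and 7.87 CPM), *Vha100-4* in M9N1 alone (6.12 and 4.24 CPM), and *CG3117* in all 4 M12 libraries (1.33 to 3.19 CPM), against at most 0.0807 CPM in Cyprus for each. These 5 do not separate the populations.

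The genes that set C2 apart were spread over the chromosome arms, with 6.41% of the tested genes on 2L, 7.1% on 2R, 6.84% on 3L, 6.02% on 3R, and 5.9% on X. On the small chromosome 4, 4 of 78 tested genes differed (5.13%, near the 6.43% of all tested genes), namely *yellow-h*, *RhoGAP102A*, *dpr7*, and *Kif3C*, and all were lower. *yellow-h* had 2.77, 3.63, 2.92, and 3.07 CPM in Cyprus and 16.4 to 25.2 CPM (median 21.9) in Germany (-2.78 ± 0.11). The list of *yellow* genes, some of which act in pigmentation, had 3 of 12 tested genes higher and 1 lower (25% and 8.33%, against 9.2% and 6.23% of all tested genes). *yellow-c* was the member that was higher against both backgrounds (0.72 ± 0.15, and 0.44 without the second C2N1 library).

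Runs of at least 3 neighbouring genes with the same direction numbered 13, of which 9 were higher and 4 lower, and held 46 genes. The longest run of lower genes was on 3R between 9685760 and 9705417, with *CG18542*, *Unc-115b*, *p24-2*, *CG32939*, and *Unc-115a*. *Unc-115b*, named for an actin-binding protein, had 68.7 and 55.7 CPM in C2D3 and 42.3 and 34.8 CPM in C2N1, against 144 to 229 CPM (median 197) in Germany (-1.95 ± 0.09). *p24-2*, which overlaps it on the same strand, was lower by 2.33 on the log2 scale, and *Unc-115a* by 1.10. These are paralogs in a duplicated segment, so the values of single copies are uncertain. Malaysian controls ranged from 37.9 to 177 CPM and Zambian ones from 37.9 to 139 CPM for *Unc-115b*. A run on 2L, between 11995740 and 11999340, held *Qtzl*, *Ada1-1*, and *CG18787*, which were lower by 1.14, 1.21, and 0.99. *Qtzl* had 6.49 to 8.26 CPM in Cyprus and 14.4 to 19.0 CPM (median 16.1) in Germany, and as a chimeric copy it can share reads with its neighbours.

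The comparison was repeated in the MSB libraries, which are other flies of the same lines. The study left out 1 of the M9N1 stress libraries, and its text does not say which, so neither entered the fit, and 10 libraries remained. There, 2090 of 11137 tested genes differed between Cyprus and Germany (18.8%). Of the 702 genes, 691 were tested under MSB, and 676 of these had the same sign as in the controls. The same sign together with a call was found for 538 (77.9%), while 18.9% of the 10744 genes tested in both treatments were called under MSB. An opposite sign with a call was found for 3, namely *TotM* (1.45, adjusted p = 0.00219), *CG13658* (1.21), and *CG11158* (0.27). *GstE11* (-8.85), *fiz* (3.64), *Rh6* (-1.41), *Cyp6a17* (2.42), and *Jheh1* (1.18) kept their direction and were past the threshold, whereas *BomS6* (-0.55, adjusted p = 0.151), *Amy-d* (0.18, adjusted p = 0.692), *Ugt302K1* (0.24, adjusted p = 0.448), and *Rpn13* (0.25, adjusted p = 0.0805) were not. Whether these differences changed between treatments was not tested.

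**Figure D5:**
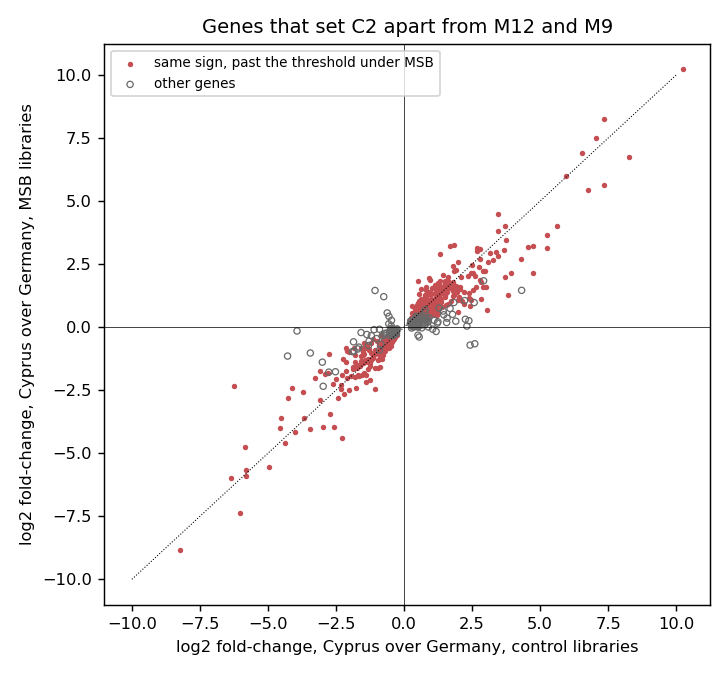
Log2 fold-change of Cyprus over Germany in the MSB libraries (vertical axis) against that in the control libraries (horizontal axis), for the 691 of 702 genes that were tested under MSB. Red points are the 538 genes with the same sign and past the threshold under MSB, open points are the others, and the dotted line marks equal values.

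In the term that compares the population difference of the deletion lines with that of the nondeletion lines, 62 genes were past the threshold (0.568%). DESeq2 called 175 for the same term. For *ppk23* this term was -2.06 (adjusted p = 0.0246), and for *Cyp6a9* it was -1.97 (adjusted p = 0.0181). In this term the deletion cannot be told apart from other residual differences within a pair of lines. Set against the midpoint of the Cypriot and German control means, the Malaysian mean lay on the Cypriot side in 197 of the 702 genes (28.1%) and the Zambian mean in 191 (27.2%). Both lay on the German side in 408 genes and both on the Cypriot side in 94. The 702 genes were chosen because C2 lay apart from both German backgrounds, which favours the German side for any further population. These shares therefore do not show which populations are alike. No such count was made for the genes in which M12 or M9 stood apart. The Zambian flies were kept on the control food for a shorter time, which cannot be told apart from their origin. *fiz*, at 0.725 to 2.16 CPM in Malaysian and 0.877 to 10.5 CPM in Zambian controls, was among the genes where C2 alone was high.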

How the data were processed

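The authors deposited 1 table of counts of reads per gene, without normalization. Per the paper's methods, RNA came from pools of whole male heads, was sequenced as paired-end reads, and NextGenMap placed the reads on FlyBase transcripts (release 6.31). How reads were counted, whether by strand, and where those with more than 1 matching gene went are not given in the sources used here, so values of overlapping genes and of near-identical paralogs may include reads of the partner. The table also gives a gene length, which was not used, and a second file repeats the labels and was not used. Libraries were assigned to lines by their labels, and 0 columns were left out for want of a label. Of 13957 genes, 13955 were matched to a position in Ensembl 115 (assembly BDGP6, Release 6).

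For each gene, edgeR 4.0.16 (under R 4.3.3) was applied with TMM factors, filterByExpr by line, and the quasi-likelihood F test, with 1 group for each of 6 lines of 2 control libraries, and contrasts of their means. Adjusted p is by Benjamini and Hochberg over all tested genes. The SE was derived from the size of the log2 fold-change and the root of its F statistic. CPM uses TMM-scaled library sizes, and for Malaysia and Zambia 1 scale over 24 control libraries. The PCA and limma 3.58.1 used log2 CPM with a prior count of 2, and DESeq2 1.42.0 was an alternative. Ratios of counts have exact intervals that cover counting error only, since reads carry no molecular identifiers.

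The genes named are the 10 highest and 10 lowest log2 fold-changes among genes past the threshold against both backgrounds, with a mean log2 CPM of at least 1 and no overlap of libraries, up to 5 genes per direction with at least 1 CPM in 1 population and at most 3 counts in each library of the other, up to 4 of the highest mean CPM of each list, the metallothioneins, the candidate list, and the 3 longest runs of neighbours. Other names complete a count or a family and were chosen after their values were seen. The members and lists, set by symbol patterns, were chosen with earlier results of these data known, and patterns that took in unrelated genes were corrected after the fit. The procedure was tested on simulated data.

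Deviations of libraries with the same replicate number correlated at 0.10 to 0.21 between German lines, at 0.30 between the Cypriot lines, and at -0.09 to 0.18 between lines of the 2 populations. The numbers thus paired the German lines with each other by a criterion of over 0.1 in every pair, but not the populations, and no block was used in the main comparisons. No library was a copy of another, since the chi-square per degree of freedom between libraries of a line was 32.8 to 77.0, and 267 in C2N1. Alternatives were DESeq2, RLE factors, no filter, the replicate block, other sets of libraries, other terms, stricter thresholds, and each library left out. Leaving out the first C2D3 and first C2N1 control libraries together was chosen after seeing the data, and so were the counts of genes in which M12 or M9 stood apart.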

Additional observations from a re-analysis of the deposited data

Results flagged for a closer look

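Among the 120 named genes tested, 16 groups of libraries held 1 library far from the others by Dixon's criterion, of 240 groups examined, where chance alone gives about 1 in 20 groups. In the first C2D3 library, *CG3348* (285 CPM), *Gpdh1* (1173 CPM), *mRpS2* (20.8 CPM), and *CG3117* (0.0763 CPM) were higher, and *Cyp6a9* (77.4 CPM) and *tim* (76.1 CPM) lower, than in the other Cypriot libraries. In the first C2N1 library, *CG1113* (8.47 CPM) and *CHKov1* (40.6 CPM) were high and *Elovl7* (92.5 CPM) was low, and in the second, *Ir93a* (0.484 CPM) was high. Among German libraries, the first of M9D3 was high in *Cyp6a21* (36.4 CPM), *Cyp6a8* (37.1 CPM), and *GstE3* (78.6 CPM), the first of M9N1 in *CG1113* (2.56 CPM) and *ninaA* (154 CPM), and the second of M12D3 in *Elo68alpha* (0.418 CPM).

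The population difference of the deletion lines differed from that of the nondeletion lines for 4 named genes. The term was -2.06 for *ppk23* (adjusted p = 0.0246), -1.97 for *Cyp6a9* (0.0181), 1.11 for *Ugt35A1* (0.0242), and 1.01 for *p24-2* (0.0468), all on the log2 scale and adjusted over 10911 genes. For *Cyp6a9*, the M9 lines differed (3.20 and 3.52 CPM in M9N1, 28.7 and 38.3 CPM in M9D3), while the M12 lines had 51.2 to 58.9 CPM. The deletion and other residual differences within a pair cannot be told apart here.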

How the results depend on the processing

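The 702 genes that set C2 apart from both German backgrounds numbered 344 at a threshold of 0.01 and 244 with a log2 fold-change of at least 1 in both contrasts, ranged from 477 to 928 with 1 library left out, and numbered 963 (559 shared) without the first C2D3 and first C2N1 libraries. Differences between populations numbered 921 with population as the only term, 867 with genotype added, 165 in limma on line means, and 855 at 0.01, and 1198 to 2331 with 1 library left out. At 0.01, C2 differed from M12 in 964 genes and from M9 in 674, M12 differed from M9 in 616, the genotype term had 20, and the MSB comparison had 1057. Without the first C2D3 and first C2N1 libraries, C2 differed from M9 in 2074 genes and M12 from M9 in 2306. The genotype term had 175 genes in DESeq2 and 103 in the fit over 24 controls. The MSB comparison had 1132 genes with all 12 libraries and 3891 without M9N1 replicate 2.

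With 1 library left out, C2 against M12 ranged from 1182 to 3031 (1182 without M12D3 replicate 1, 1230 without M12D3 replicate 2, 1215 and 1241 without M12N3 replicates 1 and 2, and 3031 without C2N1 replicate 2). C2 against M9 ranged from 857 (without M9D3 replicate 2) to 1915. M12 against M9 ranged from 757 to 2082, and the 7 libraries M12D3 1 and 2, M12N3 1 and 2, M9D3 1 and 2, and M9N1 1 lowered it to 757 to 910. The genotype term ranged from 21 to 332, with 332 without C2N1 replicate 2 and 21 to 41 without C2D3 1 or 2, M12D3 1 or 2, M12N3 2, or M9D3 1 or 2. The MSB comparison ranged from 1261 to 2239, with 1322 without C2N1 replicate 2 and 1261 and 1312 without M9D3 replicates 1 and 2. The causes were not tested.

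With a replicate block, 1711 genes differed between M12 and M9 (1404 without it), 2047 genes differed between populations, 839 differed from both backgrounds (695 of the 702 among them), and 101 of 101 called named genes kept their call. They all kept it in DESeq2 and with RLE factors, and 36 kept it in limma on line means. Signs reversed for 6 genes, and only for genes not past the threshold. With 1 library left out, *Desat2* ranged from -0.88 to 0.15 (with 0.029 and 0.086 without C2D3 replicate 2 and M9N1 replicate 1), *MtnE* from -0.38 to 0.15 (0.012 without M12D3 replicate 2), *MtnF* from -0.29 to 0.0098, *Vha100-4* from -1.19 to 0.42, *cpo* from -0.15 to 0.051 (0.036 and 0.0069 without C2D3 replicate 1 and M12D3 replicate 2), and *per* from -0.58 to 0.17. With population as the only term *MtnE* was 0.12, and 0.049 with genotype added. Without the first C2D3 and first C2N1 libraries, *cpo* was 0.13 and *per* 0.14. Genes with few counts in every library had wide errors, and small differences in them were not detectable at this depth.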

Other observations

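Of 44 neuropeptide genes tested, 4 were higher and 3 lower in Cyprus (15.9%, near the 15.4% of all tested genes), and 2 were higher and 1 lower against both German backgrounds (4.55% and 2.27%, against 4.1% and 2.34%). *AstA*, which encodes allatostatin A, a peptide of brain and gut that restrains feeding, had 80.7, 68.4, 69.8, and 66.2 CPM in Cyprus and 45.9 to 62.0 CPM (median 52.9) in Germany (log2 fold-change 0.42 ± 0.08). *Ilp5*, an insulin-like peptide gene of the insulin-producing neurons of the brain, had 19.5, 16.7, 11.4, and 10.5 CPM in Cyprus and 19.7 to 31.6 CPM (median 25.8) in Germany (-0.83 ± 0.07), without overlap. *Ilp8*, at 0.462 to 1.51 CPM in Cyprus and 0.111 to 0.358 CPM (median 0.307) in Germany, was higher by 1.62 ± 0.29.

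Cuticle protein genes were past the threshold in equal numbers in both directions, with 8 higher and 8 lower of 58 tested (13.8% each, against 9.2% and 6.23% of all tested genes). Against both backgrounds the numbers were 4 and 4 (6.9% each, against 4.1% and 2.34%). *Ccp84Ag* had 15.9, 13.4, 13.8, and 7.29 CPM in Cyprus and 0.798 to 6.15 CPM (median 3.92) in Germany (2.00 ± 0.21), and *Cpr97Eb* was higher by 1.02 ± 0.13. *Cpr49Ag* had 10.4, 15.2, 6.68, and 17.1 CPM in Cyprus and 24.9 to 54.5 CPM (median 33.6) in Germany (-1.52 ± 0.28). *Cpr60D* was higher by 0.53 ± 0.12, with an adjusted p of 0.0575 without the first C2D3 library. *Yp3*, a yolk protein gene, had 65.8, 46.7, 55.5, and 46.8 CPM in Cyprus, against means of 15.2 CPM in M12 and 40.8 CPM in M9 (1.12 ± 0.10). Among the other markers, 0 of 3 testis genes tested were past the threshold, and 1 of 3 female genes was higher (*Yp3*). Of 5 fat body genes 1 was lower (*Lsp1beta*), and of 4 gut genes 1 was higher and 2 were lower. These lists are short, and 15.4% of all tested genes differed.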
